A study of Mus musculus with 9 samples.

Results

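The meningeal fibroblast genes described here are 10 genes, Dcn, Lum, Ogn, Dpt, Mgp, Slc6a13, Slc22a6, Ptgds, Aldh1a2 and Igf2, out of 16358 genes with a symbol on the array. They were chosen by name, with earlier results of these data known. Their probes were found through the RefSeq transcript that the scanner files give for each probe. All 10 were on the array, with 12 probes in all, Igf2 and Slc6a13 having a pair of probes each. Of the 10 genes, 9 were well above background on all 9 arrays, and Dpt was on 3.

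The samples were amygdala, hypothalamus and prefrontal cortex of male wild-type C57BL/6J mice aged 8 to 9 weeks, taken on day 8 of 3 feeding regimens. The AD mice had free access to food, the RFR mice were fasted and refed on alternating days, and the CR mice had their food limited to a set share of RFR intake. Each combination of region and diet was 1 array of total RNA pooled from 4 mice killed at 14:00, so no combination had a replicate. By the labels, the mice were perfused with buffered saline, brains were sectioned at 1 mm, and nothing is said of whether the meninges or the choroid plexus were removed. The labels place the slice for prefrontal cortex posterior to bregma, further back than that for the other regions. The 3 regions of a diet came from the same group of mice. The arrays lay on 3 slides: AD in all regions and RFR prefrontal cortex on slide 1, RFR amygdala, RFR hypothalamus, CR hypothalamus and CR prefrontal cortex on slide 2, and CR amygdala alone on slide 3. No CR array shared a slide with an AD array, so diet and slide cannot be told apart in any difference of CR from AD. The same holds for CR against RFR in amygdala and in prefrontal cortex, and for RFR against AD in amygdala and in hypothalamus.

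The meninges are the membranes around the brain, and their fibroblasts lie in the dura, the arachnoid and the pia, with related cells around the larger vessels that enter the tissue. These cells make collagens and small leucine-rich proteoglycans, carry transporters that clear solutes from cerebrospinal fluid, and make retinoic acid, prostaglandin D2 and insulin-like growth factor 2. Several of the genes are also used elsewhere: Ptgds by oligodendrocytes and choroid plexus, Igf2 by choroid plexus, and Mgp by vascular cells.

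RefSeq promoters, from 250 bases before to 50 bases after a start in build GRCm38.p6, were listed for 7 of the 10 genes. Printed here are those of 4 of the genes that were at least 2-fold higher on the CR than on the AD hypothalamus array and have a single listed start, so that the letters of genes that differed together can be set side by side. They lie at chr19:8617746-8618045 on the plus strand for Slc22a6, chr13:49607765-49608064 on the plus strand for Ogn, chr9:71215539-71215838 on the plus strand for Aldh1a2 and chr2:25469700-25469999 on the minus strand for Ptgds. Capitals mark matches, on either strand, to the TATA box (TATAAA), the CCAAT box (CCAAT), the GC box (GGGCGG), the forkhead core (GTAAACA) and the E-box of the Twist type (CAGATG).
Slc22a6: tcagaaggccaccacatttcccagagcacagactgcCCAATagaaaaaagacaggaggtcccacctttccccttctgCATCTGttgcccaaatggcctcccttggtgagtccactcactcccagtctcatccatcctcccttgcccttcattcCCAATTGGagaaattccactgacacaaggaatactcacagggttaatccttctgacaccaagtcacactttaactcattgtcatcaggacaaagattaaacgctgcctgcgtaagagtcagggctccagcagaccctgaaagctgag
Ogn: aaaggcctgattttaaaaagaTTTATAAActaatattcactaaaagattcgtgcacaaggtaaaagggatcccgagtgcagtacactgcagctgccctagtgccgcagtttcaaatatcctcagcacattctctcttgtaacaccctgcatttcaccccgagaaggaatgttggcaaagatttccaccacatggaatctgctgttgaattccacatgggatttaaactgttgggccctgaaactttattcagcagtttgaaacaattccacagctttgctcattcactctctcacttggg
Aldh1a2: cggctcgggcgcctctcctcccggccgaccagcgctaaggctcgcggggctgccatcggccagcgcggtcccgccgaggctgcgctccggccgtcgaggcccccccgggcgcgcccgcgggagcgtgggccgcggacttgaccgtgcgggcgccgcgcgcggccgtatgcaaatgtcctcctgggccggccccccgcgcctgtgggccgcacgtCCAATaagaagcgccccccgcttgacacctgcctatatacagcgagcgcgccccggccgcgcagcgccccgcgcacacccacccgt
Ptgds: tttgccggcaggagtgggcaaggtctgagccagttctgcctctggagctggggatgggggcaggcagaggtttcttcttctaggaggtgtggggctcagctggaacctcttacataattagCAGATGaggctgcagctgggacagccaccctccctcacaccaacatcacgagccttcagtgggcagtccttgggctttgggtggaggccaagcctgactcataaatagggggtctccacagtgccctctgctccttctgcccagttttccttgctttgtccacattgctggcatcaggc
No motif was in all 4. CCAAT stood in the Slc22a6 and Aldh1a2 promoters, and in 37.4% of all 32851 listed promoters. The last CCAAT match of Slc22a6 overlaps a match on the other strand. CAGATG stood in those of Slc22a6 and Ptgds, against 17.2% of all promoters. TATAAA stood in that of Ogn, on both strands with overlap, against 13.6%. GGGCGG and GTAAACA were in none of the 4, against 35.7% and 3.65%. These are matches of letters and not sites of binding.

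Values below are log2 signals on a scale where 0 is the 75th percentile of the array and 1 unit is a 2-fold difference, and they compare arrays for 1 probe and not genes with each other. Differences between regions are limma estimates from 3 arrays a region, with diet in the model, their standard error (SE) and a Benjamini-Hochberg adjusted p over 12637 genes, and a gene is called at an adjusted p of at most 0.05. In RNA from whole tissue, fewer cells of a type and less RNA per cell cannot be told apart.

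Across regions, 7 of the 10 genes were lower in hypothalamus than in amygdala, and the same 7 were lower in hypothalamus than in prefrontal cortex: Ogn, Mgp, Slc6a13, Slc22a6, Ptgds, Aldh1a2 and Igf2. Of all genes fitted, 13.5% were called lower in the first comparison and 21.2% in the second. None of the 10 was called higher than in amygdala, against 15.9% of all genes. Slc22a6 differed most, being 10.7-fold lower than in amygdala and 7.06-fold lower than in prefrontal cortex. Dcn and Lum did not follow this order, and Dpt was too dim for most comparisons.

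**Figure D1:**
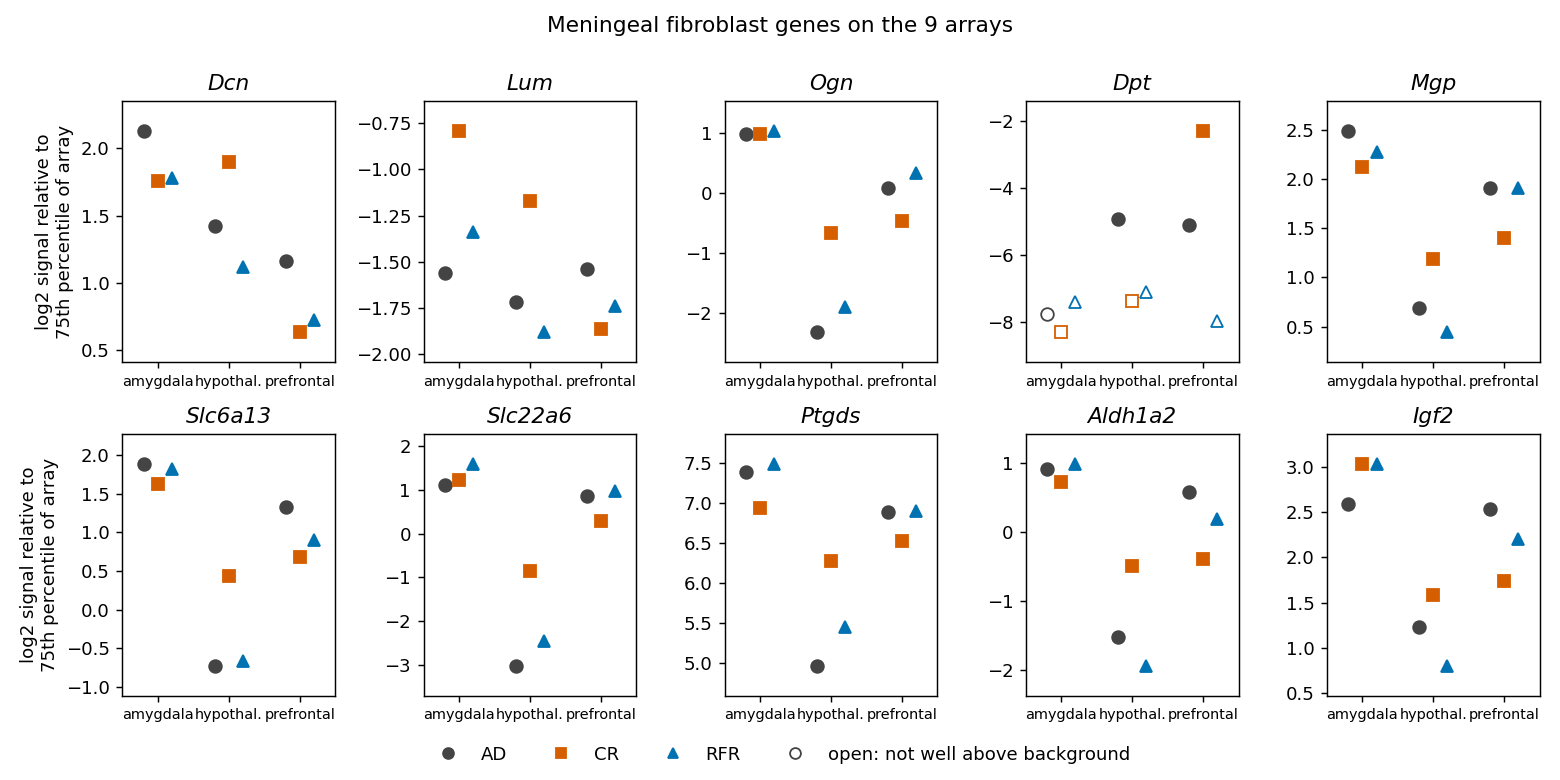
Log2 signal of the 10 genes, with 0 at the array's 75th percentile (vertical axis, own scale per gene), by region (horizontal axis) and diet (colour and shape), 1 point per array of 4 pooled mice, open where the spot was not well above background. In Ogn, Mgp, Slc6a13, Slc22a6, Ptgds, Aldh1a2 and Igf2 the AD and RFR hypothalamus arrays are the 2 lowest, with the CR hypothalamus array above them.

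Among the matrix genes, Ogn (NM_008760) encodes osteoglycin, a small leucine-rich proteoglycan. Its signal was 0.97, 0.98 and 1.03 in AD, CR and RFR amygdala, -2.32, -0.68 and -1.90 in AD, CR and RFR hypothalamus, and 0.08, -0.46 and 0.33 in AD, CR and RFR prefrontal cortex. The 3 amygdala arrays were close together, the hypothalamus arrays were spread, and no region overlapped another. Hypothalamus minus amygdala was -2.62 ± 0.40 (SE, adjusted p = 0.0035), a 6.17-fold difference, and hypothalamus minus prefrontal cortex -1.61 (adjusted p = 0.014).

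Mgp (NM_008597) encodes matrix Gla protein, an inhibitor of calcification. It read 2.49, 2.12 and 2.27 in amygdala, 0.69, 1.19 and 0.44 in hypothalamus, and 1.90, 1.40 and 1.90 in prefrontal cortex, in the order AD, CR, RFR that is kept from here on. All hypothalamus arrays were below all prefrontal arrays, which were below all amygdala arrays. Hypothalamus minus amygdala was -1.52 ± 0.23 (adjusted p = 0.0036) and hypothalamus minus prefrontal cortex -0.96 (adjusted p = 0.013).

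Dcn (NM_007833) encodes decorin, a proteoglycan that binds collagen fibrils. It read 2.13, 1.76 and 1.78 in amygdala, 1.42, 1.90 and 1.12 in hypothalamus, and 1.16, 0.63 and 0.72 in prefrontal cortex. The CR hypothalamus array lay among those of amygdala, and prefrontal cortex was lowest, overlapping hypothalamus through the AD prefrontal array. Dcn was higher in amygdala than in prefrontal cortex by 1.05 ± 0.20 (adjusted p = 0.0115), the sole one of the 10 called there, against 12.1% of all genes called higher. It was also higher in hypothalamus than in prefrontal cortex by 0.64 ± 0.20 (adjusted p = 0.037), where 26.6% of all genes were called higher. Without the CR hypothalamus array, a setting chosen after the values were seen, that second difference was 0.35 and was not called (adjusted p = 0.071).

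Lum (NM_008524) encodes lumican, a further small leucine-rich proteoglycan. It read -1.56, -0.79 and -1.34 in amygdala, -1.72, -1.17 and -1.88 in hypothalamus, and -1.54, -1.87 and -1.74 in prefrontal cortex. The regions overlapped, and no region difference was called (adjusted p = 0.253 for hypothalamus against amygdala and 0.656 against prefrontal cortex). Its highest array in amygdala and in hypothalamus was that of CR.

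Dpt (NM_019759) encodes dermatopontin, a matrix protein that binds decorin. It was well above background on the AD hypothalamus array at -4.92, the AD prefrontal array at -5.12 and the CR prefrontal array at -2.30. On the other 6 arrays it was not well above background, with measured signals from -8.30 to -7.10. The CR prefrontal value was at least 11.1-fold higher than that of RFR prefrontal cortex, at least 7.01-fold higher than each amygdala array, and at least 6.0-fold higher than the CR and RFR hypothalamus arrays. Each bound was set against the lowest signal well above background on the dim array, and 1 spot per array stands behind it. The limma fit, which took in the dim values, called no region difference for Dpt (adjusted p = 0.172 to 0.445).

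Of the transporters, Slc22a6 (NM_008766) encodes organic anion transporter 1, known for drug and organic anion uptake in kidney. It read 1.1, 1.23 and 1.59 in amygdala, -3.02, -0.85 and -2.45 in hypothalamus, and 0.87, 0.29 and 0.98 in prefrontal cortex. Every hypothalamus array was below every other array, and amygdala lay above prefrontal cortex with no overlap. Hypothalamus minus amygdala was -3.42 ± 0.49 (adjusted p = 0.0029) and hypothalamus minus prefrontal cortex -2.82 (adjusted p = 0.0032).

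Slc6a13 (NM_144512) encodes GAT2, a transporter of GABA and taurine. It read 1.88, 1.62 and 1.82 in amygdala, -0.72, 0.44 and -0.67 in hypothalamus, and 1.32, 0.68 and 0.90 in prefrontal cortex. The CR arrays of hypothalamus and prefrontal cortex were the nearest of the 2 regions, and the regions did not overlap. Hypothalamus minus amygdala was -2.09 ± 0.33 (adjusted p = 0.0039) and hypothalamus minus prefrontal cortex -1.29 (adjusted p = 0.016). Its second probe followed the first over the 9 arrays (r = 0.99).

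Among the enzymes, Ptgds (NM_008963) encodes lipocalin-type prostaglandin D synthase. It read 7.39, 6.93 and 7.48 in amygdala, 4.97, 6.28 and 5.45 in hypothalamus, and 6.88, 6.52 and 6.90 in prefrontal cortex. Every amygdala array was above every prefrontal array, and every hypothalamus array was lowest. The difference of hypothalamus from amygdala was -1.70 ± 0.33 (adjusted p = 0.0096), and from prefrontal cortex -1.20 (adjusted p = 0.023).

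Aldh1a2 (NM_009022) encodes retinaldehyde dehydrogenase 2, which makes retinoic acid. It read 0.90, 0.72 and 0.98 in amygdala, -1.52, -0.49 and -1.93 in hypothalamus, and 0.58, -0.39 and 0.18 in prefrontal cortex. On the CR arrays hypothalamus was just below prefrontal cortex, whereas in the other diets these regions were far apart, and no region overlapped another. The difference of hypothalamus from amygdala was -2.18 ± 0.39 (adjusted p = 0.0069), and from prefrontal cortex -1.44 (adjusted p = 0.021).

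Igf2 (NM_010514) encodes insulin-like growth factor 2, a secreted growth factor. It read 2.59, 3.02 and 3.03 in amygdala, 1.24, 1.59 and 0.81 in hypothalamus, and 2.53, 1.74 and 2.21 in prefrontal cortex. AD amygdala and AD prefrontal cortex were nearly equal, and no region overlapped another. Hypothalamus minus amygdala was -1.67 ± 0.28 (adjusted p = 0.0050) and hypothalamus minus prefrontal cortex -0.95 (adjusted p = 0.028). Igf2 was the only one of the 10 genes with a probe printed 10 times, and the SD between its spots was 0.027 to 0.070 on an array. Its other probe, printed as 1 spot, followed it over the arrays (r = 0.96).

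**Figure D2:**
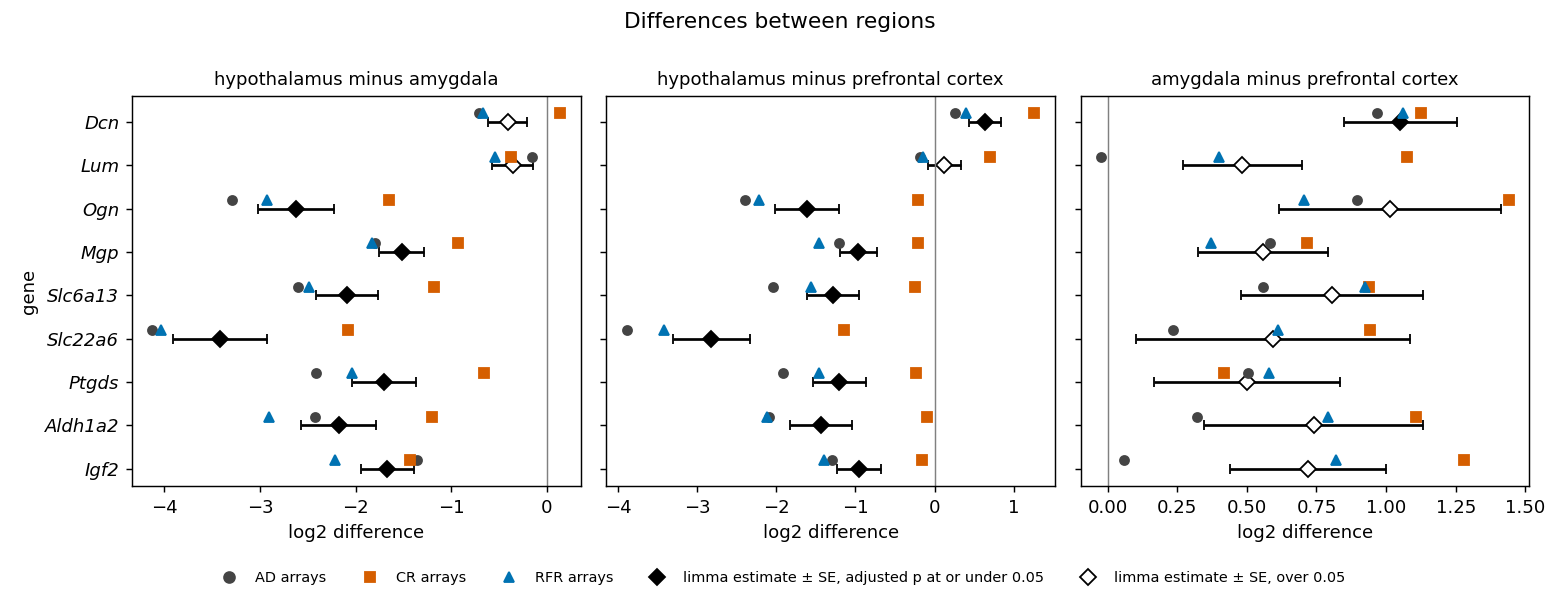
Log2 differences between regions (horizontal axis) for the 9 genes measured on all arrays (vertical axis): diamonds are limma estimates with SE bars, filled at an adjusted p of at most 0.05, and coloured points above them are the differences within each diet (1 array against 1). In hypothalamus minus amygdala and minus prefrontal cortex 7 genes are filled to the left of 0, and the CR point lies nearest to 0 in all of these but Igf2 against amygdala.

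Over the 10 genes, the arrays of hypothalamus and amygdala did not overlap in 8, those of hypothalamus and prefrontal cortex in 7, and those of amygdala and prefrontal cortex in 8, against 40%, 59.6% and 34.1% of all genes. One of the 8 in the first pair was Dpt, whose values were mostly not well above background. Without the RFR group of mice, no region difference of the 10 genes was called. The 7 estimates of hypothalamus minus amygdala were then -3.10 (Slc22a6) to -1.36 (Mgp), with a limma adjusted p of 0.055 (Mgp) to 0.124 (Ptgds). Without the AD group, 6 of the 7 were still called against amygdala and 1 against prefrontal cortex. With slide as a term, 6 were called lower against amygdala, 1 against prefrontal cortex, and Dcn was not called higher in amygdala than in prefrontal cortex. Without the CR hypothalamus array, 6 were called higher in amygdala than in prefrontal cortex. The shares of all genes called under these altered fits are not given here, so these counts stand without them.

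Region differences were also read within a slide, for the 9 genes measured throughout. On slide 1, all 9 were lower in AD hypothalamus than in AD amygdala, with a median of -2.42, and 8 were lower than in AD prefrontal cortex, with a median of -1.91. On slide 2, all 9 were lower in RFR hypothalamus than in RFR amygdala (median -2.22). In the CR arrays of slide 2 the gap was small, with 7 of 9 lower in hypothalamus than in prefrontal cortex and a median of -0.21. The shares and medians of all genes for these pairs of arrays are not given here, so the counts stand without them.

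Of 10 choroid plexus genes fitted, 5 were called higher and 1 lower in hypothalamus than in amygdala, and 9 were called higher than in prefrontal cortex. Calml4 was higher by 3.26 ± 0.54 than in amygdala (adjusted p = 0.0048), and Clic6, an intracellular chloride channel, by 1.31 ± 0.19 (adjusted p = 0.0029). Of 11 mural and smooth muscle genes, 5 were called lower in hypothalamus than in amygdala and 1 higher, led by Cnn1, calponin of smooth muscle, at -2.21 ± 0.18 (adjusted p = 0.00026). Of 12 endothelial genes, 1 was called higher than in amygdala and 6 lower than in prefrontal cortex. The labels of the regions were checked with marker lists: the hypothalamus list was called higher in hypothalamus in 8 of 9 genes against amygdala and 9 of 9 against prefrontal cortex. It was also called higher in amygdala than in prefrontal cortex in 7 of 9. Of 7 prefrontal genes, 6 were called lower in hypothalamus and 6 lower in amygdala than in prefrontal cortex. Of 7 amygdala genes, 6 were called lower in hypothalamus than in amygdala. Against prefrontal cortex, 5 of them were called higher in amygdala and 1 lower.

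A wider list of 58 meningeal and fibroblast genes, which holds none of the 10, was mostly lowest in hypothalamus too. The list was chosen with earlier results of these data known, so it is not independent of them. Of the 53 fitted, 28 were called lower and 3 higher in hypothalamus than in amygdala, with a median of -0.94 against 0.06 for all genes. Against prefrontal cortex, 25 were called lower and 7 higher, with a median of -0.65. Igfbp6, an IGF-binding protein with high affinity for IGF2, had the largest difference in both, at -3.82 ± 0.33 against amygdala (adjusted p = 0.00034) and -5.85 against prefrontal cortex (adjusted p = 1.8e-05). Hypothalamus minus amygdala was -2.89 ± 0.37 for Fmod, fibromodulin (adjusted p = 0.0018), -2.73 ± 0.41 for Cdh1, E-cadherin (adjusted p = 0.0032), and -2.68 ± 0.42 for Slc13a4, a sulfate transporter (adjusted p = 0.0038). Between amygdala and prefrontal cortex, 11 were called higher in amygdala and 4 lower, against 10.2% of all genes called lower. Ngfr, the low-affinity neurotrophin receptor, was higher in amygdala by 2.43 ± 0.31 (adjusted p = 0.0020), and Igfbp6 was lower there, at -2.03 ± 0.33 (adjusted p = 0.0056).

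The members varied together over the 9 arrays, which share pools and slides. Over the 36 pairs of the 9 genes, the median Pearson r was 0.94, from 0.13 to 0.99. After the mean of each region was subtracted, the median was 0.77. What was left were differences between the arrays of a region, in which diet, pool and slide stand together. Dcn (median r with the others 0.35) and Lum (0.52) stood apart, and the other 7 had medians of 0.93 to 0.97. Dcn came nearer once regions were subtracted, at 0.62. These are descriptions of 9 arrays.

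**Figure D3:**
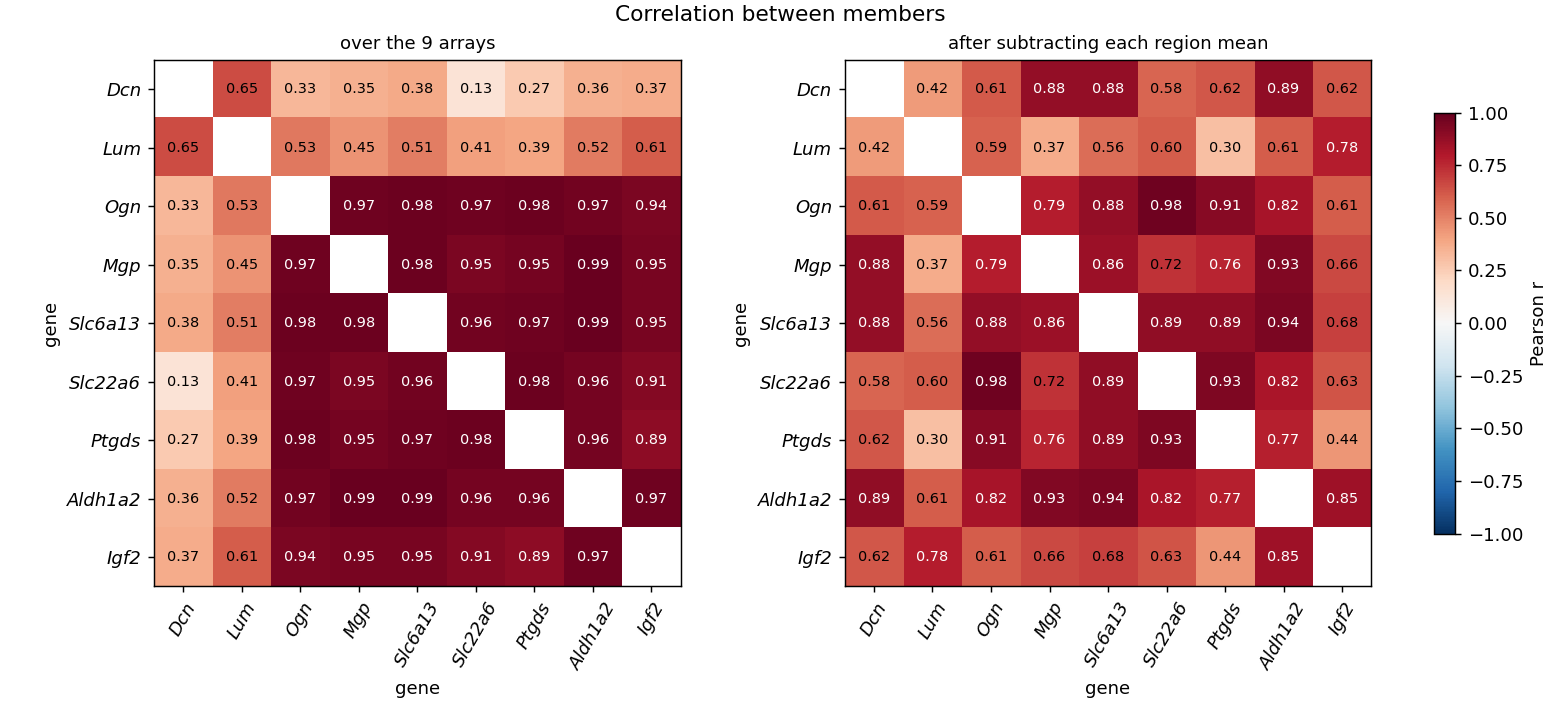
Pearson r between pairs of the 9 genes over the 9 arrays, left from log2 signals and right after the mean of each region was subtracted (genes on both axes, colour from -1 to 1). The block of 7 genes from Ogn to Igf2 is at 0.89 or above on the left, while Dcn and Lum have lower values with every other gene.

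Of 11244 genes well above background on all arrays, those whose profile was most like the mean of the 9 genes were Slc13a4 (r = 0.985), the carbonyl reductase Cbr2 (0.980), the proline transporter Slc6a20a (0.977) and Cd74, the invariant chain of MHC class II (0.976). They were followed by Wnt6, Adamts2, Mpzl2 and Fmod (0.963 to 0.966). With region means subtracted, the most alike were Igfbp2 (0.955), Casp12 (0.952), A130010J15Rik (0.951), Islr (0.951), Slc13a4 (0.951), Frrs1, Kctd20 and Clec10a (0.931 to 0.946). Of the wider list, 43 genes could be compared, and their median r was 0.80, against -0.12 for all genes. With region means subtracted it was 0.63, against 0.03.

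Between diets over the 3 regions, limma called 0 of the 10 genes in CR against AD, RFR against AD and CR against RFR, at an adjusted p of at most 0.05, and 0 at an unadjusted p under 0.05. Of all 12637 genes fitted, 0%, 0.0158% and 0.0158% were called at the adjusted threshold. At an unadjusted limma p under 0.05 there were 2089, 780 and 1868 of them. The lowest adjusted p of the 10 genes was 0.468, 0.866 and 0.451 in these contrasts. The median difference was 0.04, -0.12 and 0.19. The 3 arrays of a diet come from 1 group of mice, so these p-values are too small, and the test asks only for a difference that is alike in the 3 regions.

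Within regions, the sign of the CR differences was not the same in each. In hypothalamus, all 9 genes measured read higher on the CR array than on the AD array, and higher than on the RFR array. Dpt, not among these 9, was well above background there on the AD array only, at least 1.11-fold above CR. In prefrontal cortex, all 9 read lower on the CR array than on either of the others. That CR array lay on slide 2, and the AD and RFR prefrontal arrays on slide 1. Diet and slide cannot be told apart there. With 1 array a side there is no test, and the values describe these arrays. Both CR comparisons with AD and those of RFR with AD use the same AD arrays, so they are not independent.

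In hypothalamus, 5 of the 9 genes were at least 2-fold higher in CR than in AD, against 0.655% of all genes. The difference was 2.17 for Slc22a6 (4.50-fold), 1.64 for Ogn, 1.31 for Ptgds, 1.16 for Slc6a13 and 1.03 for Aldh1a2, each higher than for at least 99.4% of all genes measured. Lum (0.55), Mgp (0.50), Dcn (0.48) and Igf2 (0.35) differed less. For Igf2 this exceeded the spread between its spots, an error of spotting and not of mice, and the other Igf2 probe gave 0.87. Of all genes, 46.2% were higher at any size. The median of the 9 genes was 1.06 above that of all genes.

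The same hypothalamus array was set against RFR on the same slide. All 9 genes were higher in CR, by 0.71 to 1.60, with a median of 0.80 above that of all genes, and 56.1% of all genes were higher at any size. Those at least 2-fold higher were Slc22a6 (1.60), Aldh1a2 (1.44), Ogn (1.22) and Slc6a13 (1.11), against 0.23% of all genes. Lum, the lowest of the 9, lay at the 99.0th percentile of all genes measured. RFR against AD in hypothalamus gave 4 genes higher and 5 lower, from -0.43 to 0.57, where 61% of all genes were lower, with none at least 2-fold apart, against 0.715% of all genes.

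In prefrontal cortex, the 9 genes read lower in CR than in AD, from -0.97 to -0.33, and 53.6% of all genes were lower. None of the 9 was 2-fold lower, against 0.695% of all genes. Aldh1a2 was lowest at -0.97, the 0.797th percentile of all genes, followed by Igf2 (-0.79) and Slc6a13 (-0.64). The other Igf2 probe gave -0.33 in this comparison and -0.045 in CR against RFR. Against RFR the 9 genes read lower in CR, from -0.79 for Ogn and -0.69 for Slc22a6 to -0.09 for Dcn, and none was 2-fold lower, where 53.5% of all genes were lower and 0.346% were 2-fold lower. Dpt ran the other way, at 2.82 higher in CR than in AD, the largest of all 11794 genes measured in that comparison, where 0.432% were at least 2-fold higher. That value rests on 1 spot per array, and its AD signal of -5.12 was dim. On the arrays where Dpt was not well above background, the lowest signals that were lay at -6.11 to -4.89. In RFR against AD, on the same slide, 6 of the 9 were lower and 3 higher, from -0.44 to 0.25, where 48% of all genes were lower and 1.04% of all genes were at least 2-fold apart.

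In amygdala, none of the 9 genes was at least 2-fold apart between any pair of diets. CR against AD gave 4 genes higher and 5 lower, from -0.45 for Ptgds to 0.77 for Lum, and none was at least 2-fold apart, against 3.32% of all genes. Lower in that comparison were 61.8% of all genes. The Igf2 probe used gave 0.43 there and in RFR against AD, and its other probe 0.82 and 0.63. RFR against AD gave 6 higher and 3 lower, where 45.8% of all genes were higher, and CR against RFR 1 higher and 8 lower, where 56.4% were lower, again with none at least 2-fold apart, against 1.5% and 2.17% of all genes.

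**Figure D4:**
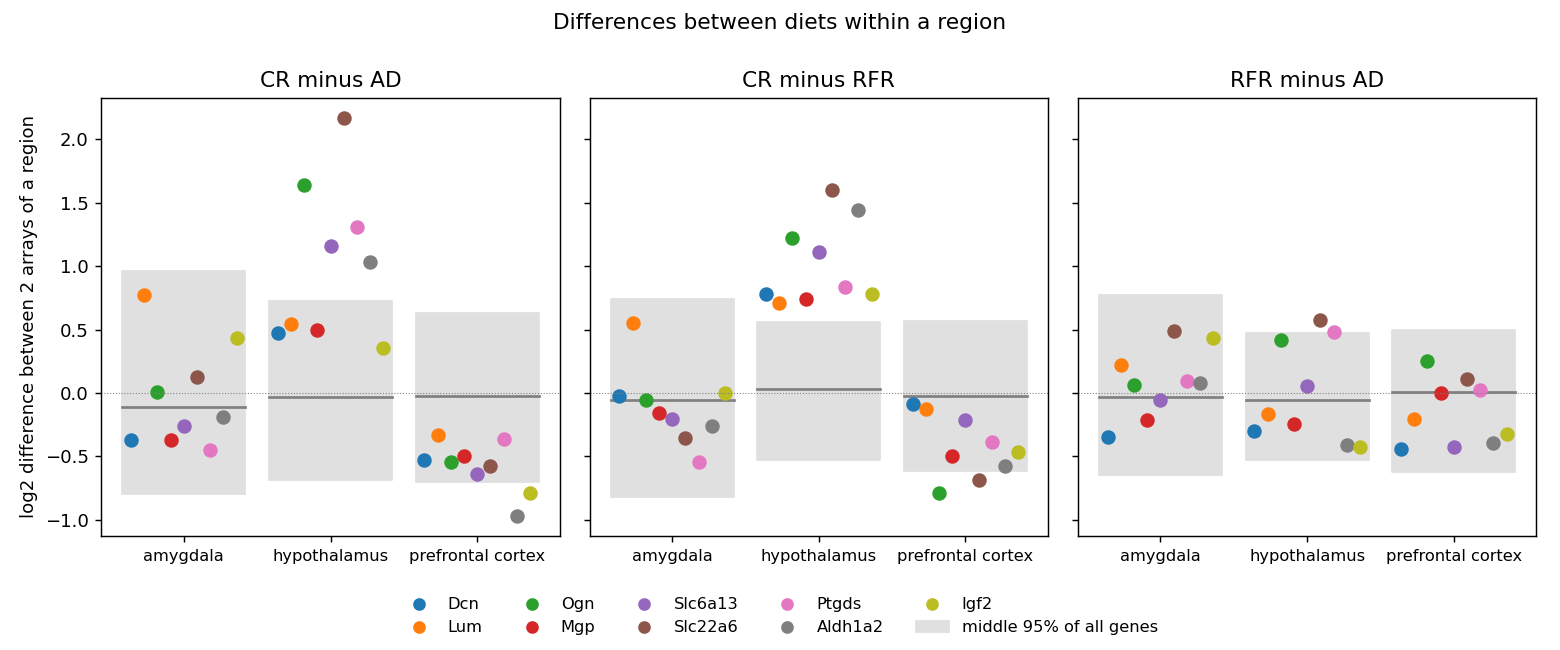
Log2 difference between 2 arrays of a region (vertical axis) for the 9 genes (coloured points), by region (horizontal axis) and pair of diets (panels); grey bands hold the middle 95% of all genes and grey lines their median. All 9 points lie above 0 in hypothalamus in CR minus AD and CR minus RFR, and below 0 in prefrontal cortex.

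The authors' deposited table, which gives ratios to the AD array of the same region, holds 9 of the genes in hypothalamus. Its ratios come from the same arrays, and nearly all differ from the scanner ratios by 1 constant per array. They are therefore not a second measurement. In the authors' deposited table, CR over AD in hypothalamus was 4.88 for Slc22a6, 3.38 for Ogn, 2.69 for Ptgds, 2.42 for Slc6a13 and 2.21 for Aldh1a2. In prefrontal cortex, the authors' deposited table gives 0.545 for Aldh1a2, 0.609 for Igf2 and 7.51 for Dpt.

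The wider list, chosen with earlier results of these data known, differed the same way. In hypothalamus, 38 of its 48 measured genes were higher in CR than in AD, with a median of 0.42 against -0.03 for all genes, and 6 were at least 2-fold higher and 1 lower. Igfbp6 was higher by 1.55, Ranbp3l by 1.47 and Slc13a4 by 1.37, and the organic cation transporter Slc22a2 was at -1.83. Against RFR, 35 of 45 were higher, with a median of 0.47 against 0.03, led by Ranbp3l (1.70), the cytochrome Cyp1b1 (1.36) and Slc13a4 (1.29). RFR against AD had 24 of 45 higher and a median of 0.01. In prefrontal cortex, 40 of 49 were lower in CR than in AD, with a median of -0.36 against -0.03 for all genes, led by Col1a1, the alpha 1 chain of type I collagen (-2.49), and the transcription factor Osr1 (-1.47). Against RFR, 43 of 49 were lower, and the median was -0.36. In amygdala, 35 of 53 were lower in CR than in AD, with a median of -0.20 against -0.11 for all genes.

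Lists of other cell types also differed between these arrays. In hypothalamus, 10 of 12 endothelial genes were higher in CR than in AD, with a median of 0.31, and Abcb1a, the drug efflux pump of the blood-brain barrier, was at 0.86. Their summed level, the log2 of the summed signal of a list, was 5.30 to 5.60 over the 3 hypothalamus arrays, and CR was highest. Of 10 mural genes, 7 were higher in CR than in AD, with a median of 0.20 and a summed level of 4.61 in AD, 4.67 in CR and 4.42 in RFR. The 11 oligodendrocyte genes split into 5 higher and 6 lower against AD, with Cldn11 at 0.96, and were all higher than in RFR (median 0.26). Their summed level was 7.68 in AD, 7.79 in CR and 7.38 in RFR.

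Choroid plexus genes had 6 of 9 higher in CR than in AD hypothalamus, with a median of 0.08. Ttr, transthyretin, was at 1.46, and the summed level of the list was 3.02 in AD, 3.10 in CR and 2.92 in RFR, with Otx2 and F5 not well above background on the 3 arrays. Of the 5 blood genes, 2 were measured in CR and AD hypothalamus, and the haemoglobin gene Hba-a1 was 0.54 higher in CR than in AD and 1.97 higher than in RFR. The part of these cell types in the hypothalamus differences was not tested. Ptgds, Igf2 and Mgp were named above as also used elsewhere. Without them, the median of the rest, above that of all genes, was 1.13 in CR against AD and 1.13 in CR against RFR. In CR against AD, Mgp (0.50) and Igf2 (0.35) were among the genes that differed least. In CR against RFR, Ptgds (0.83), Igf2 (0.78) and Mgp (0.745) lay below the genes at least 2-fold higher. The medians thus depend on which genes were left out, and the cell source was not tested. Whether the remaining members are confined to meningeal fibroblasts was not tested.

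In prefrontal cortex, 8 of 11 mural and smooth muscle genes were lower in CR than in AD, led by Tagln (-0.70) and Acta2 (-0.58), with a summed level of 4.93 in AD, 4.71 in CR and 4.81 in RFR. Bone and marrow genes had a summed level of 1.84 in AD, 0.52 in CR and 0.25 in RFR prefrontal cortex, and Ibsp and Sp7, markers of osteoblasts, were not well above background on these arrays. Of 5 bone and marrow genes measured in CR and AD, 2 were higher and 3 lower in CR, with a median of -0.58. The osteocalcin-related Bglap3 was at -3.06 in CR against AD. Of 11 oligodendrocyte genes, 10 were higher in CR than in AD (median 0.28). The part of bone, vessel and oligodendrocyte RNA in the prefrontal differences was not tested.

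**Figure D5:**
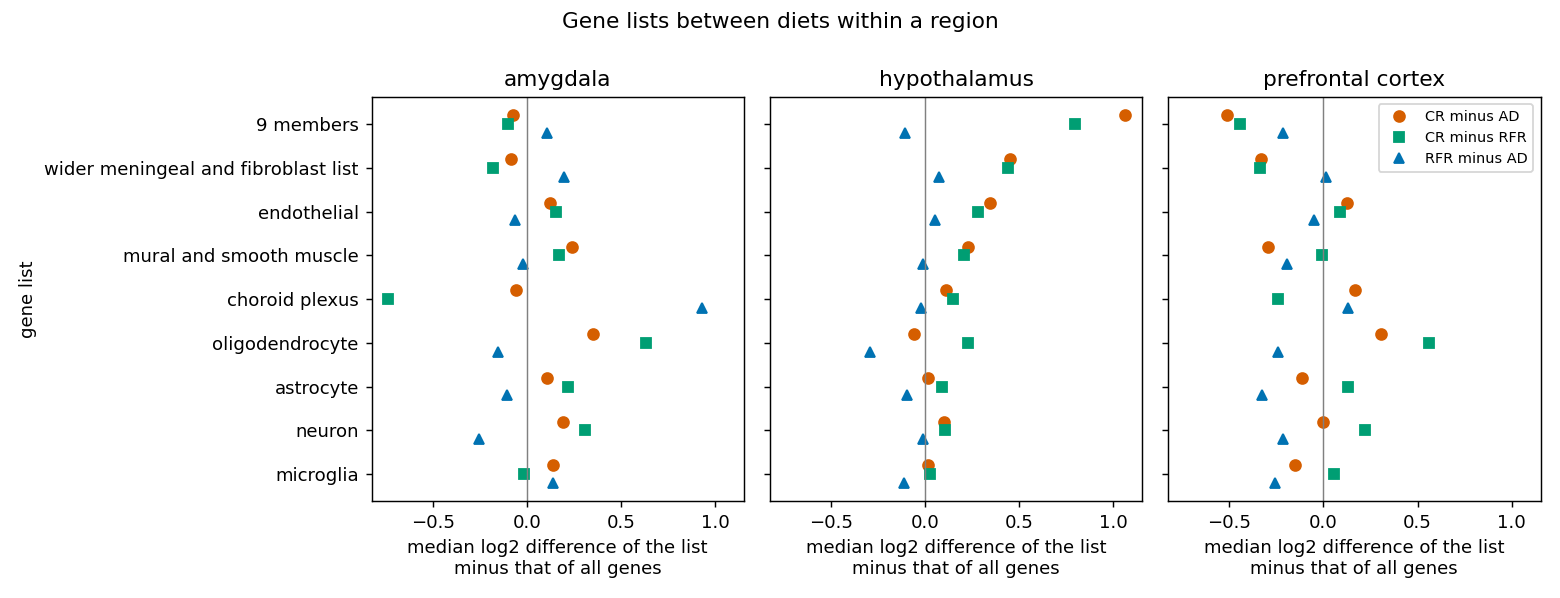
Median log2 difference of each gene list minus that of all genes (horizontal axis) between 2 diets, by region (panels), for the 9 genes, the wider list and 7 lists of other cell types (vertical axis). In hypothalamus the 9 genes stand at 1.06 for CR minus AD and 0.80 for CR minus RFR, to the right of the 8 other lists drawn, and in prefrontal cortex at -0.51 and -0.44.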

How the data were processed

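Each array held Cy3-labelled RNA (400 ng) pooled from 4 mice, per the labels. Per the file headers, the deposited scanner files are output of Agilent Feature Extraction 9.5.1.1 (protocol GE1-v5_95_Feb07), whose processed signal is an intensity, background-subtracted within the array and not scaled between arrays. Deposited columns with other content are quality flags (0 or 1) of each spot. A second table deposited by the authors gives the ratio of each CR or RFR array to its region's AD array. After 1 constant per array, 99.3% to 99.4% of them lay within 0.01 log2 units of the scanner ratio, and its making is not given in the sources used here.

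From each spot's log2 processed signal, the array's 75th percentile (43379 noncontrol spots) was subtracted. Spots marked as outliers were dropped, and repeated spots of a probe averaged. Between 59.8% and 69.6% of spots were well above background, and the number of arrays limits the precision. Of 41174 probes, 22951 had a symbol through their RefSeq accession (gene table of GRCm38.p6); a gene took its probe with the highest mean. Genes well above background on at least 3 arrays, with a value on at least 6, were fitted with limma 3.58.1 (R 4.3.3; region plus diet, 4 residual degrees of freedom). On simulated data for hypothalamus against amygdala (12550 genes), it recovered 24%, 68%, 96% and 100% of genes changed by 0.5, 1, 2 and 4 log2 units, and called 9 of 12350 unchanged genes. The simulation had independent noise and 200 changed genes, with no other effect of region, diet, pool or slide. Its shares need not hold for the real comparison, where 15.9% of genes were called higher and 13.5% lower. Array p-values measure the spread between these arrays.

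The members and lists were chosen with earlier results of these data known. Named outside the members are up to 4 genes per list and contrast with the largest difference, and the 8 of most alike profile by each measure. Alternatives changed the background correction (normexp, offset 50, on median signals, since the files hold no mean signals), scaling, source, probe choice, filter, variance model and slide term, and left out pools or arrays. Python 3.11.15 was used for the rest.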

Additional observations from a re-analysis of the deposited data

Results flagged for a closer look

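The median of the measured genes, relative to that of all genes, had opposite signs in different regions under the same pair of diets. With 1 array per region and diet, none of these differences between regions was tested. In CR against AD it was 1.06 in hypothalamus, where 9 of 9 genes were higher, and -0.51 in prefrontal cortex, where 9 of 10 were lower. In CR against RFR it was 0.80 in hypothalamus, whereas amygdala gave -0.099 and prefrontal cortex -0.44. In RFR against AD it was 0.11 in amygdala, -0.11 in hypothalamus and -0.21 in prefrontal cortex, with members on both sides of 0 in each region.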

How the results depend on the processing

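The region comparisons are already paired by pool, through the diet term of the fit, and the diet comparisons by region. By replicate number, no paired analysis was possible because no combination of region and diet has more than 1 array. Of 426 recomputed values, 356 kept their direction and their side of the threshold or stayed near the first value. Leaving out a pool or array moved the genes called lower in hypothalamus from 0 to 8 against amygdala and from 0 to 7 against prefrontal cortex, where slide as a term left 1. The counts of 0 came without the RFR pool, while without the CR pool they were 8 and 7. Shares of all genes called are given for the main fit only. Dcn, called higher in hypothalamus than in prefrontal cortex, gave counts of 0 to 1 when an array or pool was left out, and 0 with no filter on dim genes and with slide. Higher in amygdala than in prefrontal cortex were 0 to 6 with a pool or array left out, 2 with normexp and 0 with slide. No diet call appeared under any alternative run. The median in hypothalamus CR against AD was 0.80 with normexp and 0.82 with dim members included, and that in CR against RFR was 1.13 without Ptgds, Igf2 and Mgp. Without those 3, amygdala CR against AD gave 0.022, hypothalamus RFR against AD turned to 0.0025, and prefrontal RFR against AD gave -0.31. With normexp, amygdala CR against RFR turned to 0.033 and prefrontal CR against RFR gave -0.30. Of the 5 genes at least 2-fold higher in CR than in AD hypothalamus, Aldh1a2 was at 0.74 with normexp, and Ogn at 0.88 against RFR. The cause of these shifts was not tested. Leaving out the CR hypothalamus array was chosen after the values were seen. Dpt is limited by signal, at or near background on most arrays.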
